A study of Mus musculus with 30 samples.

Results

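The vehicle arm of the study was compared with itself across 12 h. The 3 hypothalami taken 24 h after an injection of oil were set against the 3 taken 12 h after it, chosen by their sample titles, which makes 6 of the 30 arrays of the series. All mice were newborn C57BL/6J females of about 1.4 g, injected under the skin on the day of birth with 20 μl of peanut oil, and were kept under 14 h of light and 10 h of darkness with lights on at 5 h. The other 24 arrays were the vehicle groups at 1, 3 and 6 h and the 5 groups given 7.5 μg of estradiol benzoate (EB, an esterified estrogen) in the same volume. Neither the clock time of the injection nor the litter of each mouse is given in the sources used here, so the p-values measure the spread between these mice. Both groups received the same oil, and the time of day, the age and the time since the injection all move together between them and cannot be told apart.

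The hypothalamus is a set of small nuclei that govern feeding, body temperature, reproduction and daily rhythms, and in the newborn mouse its neurons are already born while most of its synapses and glia are still forming. Daily timing rests on a loop of genes in which CLOCK and BMAL1 (gene Arntl) switch on the Per and Cry genes, whose proteins then hold CLOCK and BMAL1 back. Nuclear receptors of the REV-ERB and ROR families time Arntl, and PAR bZIP factors such as Dbp, Tef and Hlf carry the rhythm to output genes. In adult rodents many of these transcripts swing widely between opposite times of day, whereas around birth the rhythm of most tissues is shallow.

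Whole hypothalamic RNA was read on 1 expression array per mouse, and the values are signal intensities of probe sets, the groups of short oligonucleotides that each report a transcript. The 24 h arrays were dimmer than the 12 h arrays. Their median deposited signals were 31.9, 28.4 and 36.5, against 61.5, 66.9 and 66.4 at 12 h (p = 0.1 by a two-sided exact permutation test, the lowest value possible with 3 against 3). The median probe set lay 1.05 lower on the log2 scale at 24 h before the arrays were scaled, and all levels below are signals brought to a common array median of 41.3. The ratio of 3′ to 5′ signal overlapped between the groups for Gapdh, with 0.713 to 0.763 at 24 h and 0.711 to 0.727 at 12 h. For Actb it was 1.36 to 1.44 at 24 h and 1.38 to 1.41 at 12 h. For Tfrc, another such control, the overlap was narrow, with 0.251 to 1.30 at 24 h and 1.25 to 6.16 at 12 h. The 18S ribosomal RNA controls overlapped too, at 661 to 1221 at 24 h and 703 to 968 at 12 h. One 12 h array, replicate 2, stood apart in markers of neighbouring tissue. Ttr, the thyroid hormone carrier made by the choroid plexus, read 32.1, 24.3 and 22.9 at 24 h, against 44.3, 288 and 39.6 at 12 h, and Cga, the pituitary hormone alpha subunit, read 1.53, 2.04 and 1.62 at 24 h, against 3.03, 93.0 and 6.15 at 12 h. Without that array 1883 probe sets were higher and 1436 lower.

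Of 27022 probe sets, 3451 passed (12.8%), of which 2015 (7.46%) were higher and 1436 (5.31%) were lower at 24 h than at 12 h, by limma with Benjamini-Hochberg adjusted p under 0.05. Counting each of 12388 genes once, by its brightest probe set, 504 (4.07%) were higher and 827 (6.68%) lower, 10.7% in all. The levels of the groups did not overlap for 33.9% of probe sets. Leaving out 12 h replicate 3 left 1262 higher and 461 lower, leaving out 12 h replicate 1 left 807 lower, and leaving out 24 h replicate 1 or 2 left 789 or 609 lower. On the deposited signals, with the shift of all probe sets taken off, 804 were higher and 111 lower. In bulk tissue fewer cells of a type and less RNA per cell cannot be told apart.

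None of the clock genes passed the test. The 20 tested of 22 on the array had a median log2 fold change of 0.09, against -0.08 over all genes, and 3 of them had an unadjusted p under 0.05, as 24.8% of all genes did. The genes of the loop itself had folds near 1. Arntl read 158, 198 and 149 at 24 h, against 144, 155 and 178 at 12 h, and its fold of 1.06 had a 95% interval of 0.872 to 1.28. Clock read 246, 249 and 268 at 24 h, against 265, 227 and 351 at 12 h, with a fold of 0.921 and an interval of 0.736 to 1.15. The groups overlapped for both. The repressors gave similar values. Per1, which light and many hormones induce quickly, read 119, 135 and 130 at 24 h, against 116, 132 and 116 at 12 h, a fold of 1.06 with an interval of 0.835 to 1.33. Per2 read 74.0, 74.6 and 74.8 at 24 h, against 62.5, 67.4 and 64.2 at 12 h, so that its groups did not overlap, but its fold was only 1.15 with an interval of 0.902 to 1.47 (adjusted p = 0.481 from limma). The interval reached 1.61 for Per3, 1.47 for Cry1 and 1.12 for Cry2. Among the receptors, Nr1d2 (REV-ERB beta) had a fold of 1.14 with an interval of 0.896 to 1.46, Rora 1.2 with 0.945 to 1.53 and Rorb 1.07 with 0.872 to 1.32.

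The output factors had folds near 1 too. Dbp, which swings several-fold over the day in adult tissue, read 105, 73.7 and 68.1 at 24 h, against 68.7, 90.8 and 87.2 at 12 h, a fold of 0.989 with an interval of 0.777 to 1.26. Tef had a fold of 0.985 with an interval of 0.842 to 1.15, and Hlf one of 1.18 with 0.888 to 1.56. The smallest p-values belonged to 3 regulators around the loop. Nfil3, a repressor that binds the same sites as Dbp, read 147, 132 and 156 at 24 h, against 111, 100 and 107 at 12 h, with no overlap, at 0.45 on the log2 scale (SE 0.179, limma adjusted p = 0.0964). Bhlhe40, a repressor of E-box genes, read 83.1, 72.8 and 63.3 at 24 h, against 44.2, 61.2 and 54.7 at 12 h, also with no overlap, at 0.46 (adjusted p = 0.170 from limma). Usp2, a deubiquitinase of clock output, read 92.3, 76.2 and 92.5 at 24 h, against 134, 98.7 and 126 at 12 h, at -0.45 (adjusted p = 0.0693 from limma, and 0.0310 without 12 h replicate 2). The intervals for Ciart and Npas2, both dim, were wide, at 0.675 to 1.77 and 0.668 to 1.58. The kinases Csnk1d and Csnk1e had folds of 1.03 and 0.915. Of all 45 probe sets of these 20 genes, 5 passed, against 12.8% of all probe sets, each a dimmer one of its gene: those of Csnk1d, Per3, Rorb and Tef were higher, between 0.70 and 0.76, and that of Csnk1e was lower, at -0.37.

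**Figure D1:**
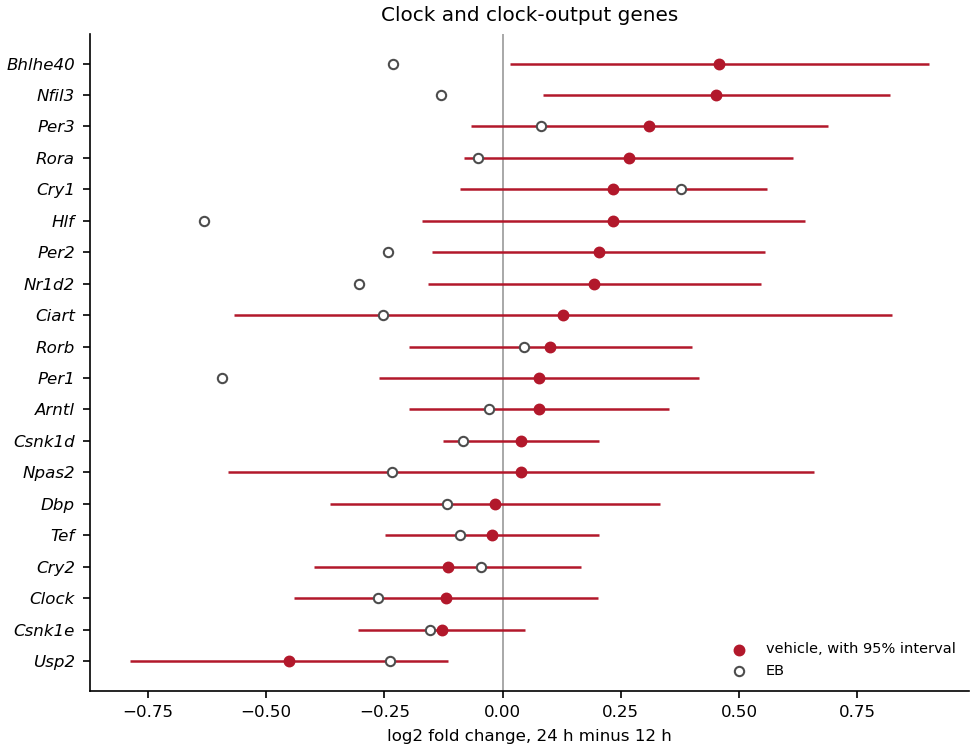
Log2 fold change between 24 h and 12 h (x axis) of each clock or clock-output gene by its brightest probe set (y axis, ordered by the change after vehicle). Filled points are vehicle with 95% intervals from limma and open points are EB, 3 arrays at each time; the vehicle intervals of all genes but Nfil3, Bhlhe40 and Usp2 include 0.

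The E-box, with the letters CACGTG, is the element that CLOCK and BMAL1 bind. It was searched for on the window from 250 bases before to 50 bases after each start site, in which it reads the same on both strands. Of the 26 windows that 17 of the tested clock genes had, 5 (19.2%) held it, against 9.58% of the windows of all genes tested and 7.15% of all 32851 windows. The windows of Per1, Cry1 and Ciart are shown because these are textbook targets of the element and did not pass the test here. They come from RefSeq on GRCm38.p6, each 5′ to 3′ on the gene's strand with the E-box in capitals: Per1 on chr11:69098699-69098998 (plus strand), Cry1 on chr10:85185005-85185304 (minus strand) and Ciart on chr3:95882179-95882478 (minus strand).
Per1: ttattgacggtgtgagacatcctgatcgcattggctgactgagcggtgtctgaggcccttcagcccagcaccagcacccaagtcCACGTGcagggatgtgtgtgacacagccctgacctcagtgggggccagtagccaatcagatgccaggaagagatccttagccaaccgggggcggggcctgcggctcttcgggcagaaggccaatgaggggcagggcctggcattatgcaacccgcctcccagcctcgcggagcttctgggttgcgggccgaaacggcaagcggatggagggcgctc
Cry1: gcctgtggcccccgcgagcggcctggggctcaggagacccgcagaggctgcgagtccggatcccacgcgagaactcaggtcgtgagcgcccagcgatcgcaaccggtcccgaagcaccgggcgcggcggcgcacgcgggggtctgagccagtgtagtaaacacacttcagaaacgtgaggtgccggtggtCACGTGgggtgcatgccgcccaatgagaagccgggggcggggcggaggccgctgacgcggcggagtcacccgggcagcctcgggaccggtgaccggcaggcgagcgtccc
Ciart: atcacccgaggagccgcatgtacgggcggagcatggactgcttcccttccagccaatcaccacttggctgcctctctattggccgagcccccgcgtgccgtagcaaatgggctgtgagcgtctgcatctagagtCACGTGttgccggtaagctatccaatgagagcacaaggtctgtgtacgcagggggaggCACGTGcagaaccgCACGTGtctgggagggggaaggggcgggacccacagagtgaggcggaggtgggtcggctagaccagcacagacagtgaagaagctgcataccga
The E-box begins 166 bases before the start in Per1 and 60 bases before it in Cry1. Ciart holds 3, at 116, 58 and 44 bases before the start.

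The lists of immediate early, glucocorticoid, hypoxia, cold and fasting genes gave 1 call together by the brightest probe sets, where 10.7% of all genes passed. Over all their probe sets, 1 of 37 glucocorticoid ones was higher and 3 lower, and 2 of 29 hypoxia ones were higher and 2 lower. The 20 fasting ones gave 1 lower and the 27 immediate early ones 0, where 12.8% of all probe sets passed. None of 17 immediate early genes, which neuronal activity switches on within minutes, passed, and 2 had an unadjusted p under 0.05, against 24.8% of all genes. Jun read 236, 235 and 250 at 24 h, against 316, 364 and 346 at 12 h (log2 fold change -0.51, adjusted p = 0.0587 from limma), while Jund differed by only 0.01. None of 19 glucocorticoid receptor and target genes passed (3 with an unadjusted p under 0.05). Fkbp5, a co-chaperone of that receptor, was at -0.19, and Tsc22d3, which encodes the glucocorticoid-induced leucine zipper, at 0.22 (adjusted p = 0.0756 from limma). None of 16 hypoxia genes passed, and Cirbp, the cold-inducible RNA-binding protein, was at 0.04. One of 12 fasting and fatty acid genes was lower, Acot1, a cytosolic acyl-CoA thioesterase, at -0.34, a call lost without 12 h replicate 3 (adjusted p = 0.105 from limma) or 24 h replicate 1 (0.204).

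The largest changes were in genes of other kinds, and the plot of the 30 genes with the largest change gives each of their arrays. Groups without overlap were a condition of the choice of these genes, and 33.9% of all probe sets met it. Among the 15 genes that were highest relative to 12 h, 13 kept the call without any 1 array. Several act on nuclear RNA. Malat1, a nuclear long noncoding RNA, read 7550, 6930 and 6400 at 24 h, against 3300, 3480 and 2920 at 12 h, well apart, at 1.11 on the log2 scale (SE 0.10, limma adjusted p = 4.84e-08), and 3 of its other 6 probe sets were also higher. Thoc2, a subunit of the complex that hands mRNA over for export, read 639, 664 and 612 at 24 h, against 322, 329 and 343 at 12 h, at 0.95 (SE 0.0833, limma adjusted p = 3.42e-08). Pcf11, a factor of 3′ end cleavage, was at 0.83, and Srsf2, a splicing factor, read 2050, 2020 and 2370 at 24 h, against 1350, 993 and 1250 at 12 h, at 0.85. Neither of the other 2 probe sets of Thoc2 was higher (0.09 and 0.21), and 1 of the other 3 of Pcf11 was. Of the other 3 probe sets of Srsf2, 2 were higher and 1, a dim one, lower.

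Other rising genes act in transport and metabolism. Maoa, the enzyme that breaks down serotonin and noradrenaline, read 438, 471 and 378 at 24 h, against 213, 273 and 216 at 12 h, at 0.88 (SE 0.111, limma adjusted p = 4.39e-06). Slc1a4, a transporter of serine, alanine and other neutral amino acids, read 554, 500 and 509 at 24 h, against 247, 298 and 285 at 12 h, at 0.92. For each, the lowest 24 h array lay above the highest 12 h array, as the choice of these genes required. Slc16a14, of the monocarboxylate transporter family, was at 0.97, Ifngr2, a subunit of the interferon gamma receptor, at 0.88, and Cox7c, a subunit of cytochrome c oxidase, at 0.84. The other probe sets of these genes did not pass: Maoa had 1, at 0.03, Slc1a4 had 2, at 0.00 and 0.03, Slc16a14 had 1, at 0.43, Ifngr2 had 1, at -0.37, and Cox7c had 1, at 0.69. H3f3a, which encodes histone H3.3, was at 0.97 by its only tested probe set, a dim one. That probe set read 79.1, 93.6 and 77.2 at 24 h, against 46.6, 38.6 and 41.9 at 12 h. Creg2 and the zinc finger gene Zbed6 were at 1.08 and 0.96. Tmsb10, an actin-binding peptide abundant in young neurons, was at 0.95, but its other 3 probe sets lay between -0.13 and 0.39, with 1 higher. Tcl1b3, at 1.37, lost its call without any 1 of the 6 arrays (adjusted p from 0.0603 to 0.178), and Ptar1, at 0.88, lost it without 12 h replicate 3, 24 h replicate 1 or 24 h replicate 2 (0.193, 0.0531 and 0.163).

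Fewer of the falling genes were bright, and 11 of the 15 with the largest fall had a mean under 50 at 24 h. Mt3, the brain metallothionein that binds zinc and copper, read 519, 535 and 580 at 24 h, against 961, 1330 and 1150 at 12 h, at -1.06 (SE 0.176, limma adjusted p = 0.000132). Atp5md, a small subunit of ATP synthase, read 1520, 1090 and 1380 at 24 h, against 2620, 3010 and 3180 at 12 h, at -1.15. The groups were far apart for both, and a lack of overlap was a condition of the choice. Lrrc8d, a subunit of the volume-regulated anion channel, read 136, 110 and 127 at 24 h, against 297, 270 and 329 at 12 h, at -1.26 (adjusted p = 2.61e-07 from limma). Rpl27a, a ribosomal protein, read 151, 162 and 154 at 24 h, against 433, 372 and 349 at 12 h, at -1.30 (adjusted p = 3.99e-07). Sapcd2, a regulator of spindle orientation, was at -1.39, with 16.8, 25.5 and 17.2 at 24 h, against 51.9, 39.2 and 64.4 at 12 h. Afmid, the kynurenine formamidase, Mettl27 and Podn, a small matrix proteoglycan, were at -1.12, -1.04 and -1.03, and these 8 kept their calls when each array was left out.

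The other 7 lost theirs without at least 1 array. Vwf, the von Willebrand factor of endothelium, at -1.19, lost it without 12 h replicate 1 (adjusted p = 0.0534 from limma) or 24 h replicate 2 (0.120), and Xaf1, at -1.10, without 12 h replicate 3 (0.0694) or 24 h replicate 1 (0.0507). Ect2, which drives cytokinesis, at -1.07, lost it without 12 h replicate 3 (0.114) or 24 h replicate 2 (0.0825), and Wbp2nl, at -1.32, without 12 h replicate 1 (0.144) or 3 (0.0636) or 24 h replicate 1 (0.320). Cyp2s1 (-1.08) and Fut10 (-1.01) each lost theirs without any of 5 arrays, keeping it without 24 h replicate 1 for Cyp2s1 and without 24 h replicate 3 for Fut10. Tubb6 (-1.05), a beta tubulin, lost it without any 12 h array or without 24 h replicate 2 (adjusted p up to 0.308). At these signals the spread between arrays is wide: Cyp2s1 read 34.5, 11.1 and 20.4 at 24 h, against 40, 43.5 and 42.6 at 12 h.

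**Figure D2:**
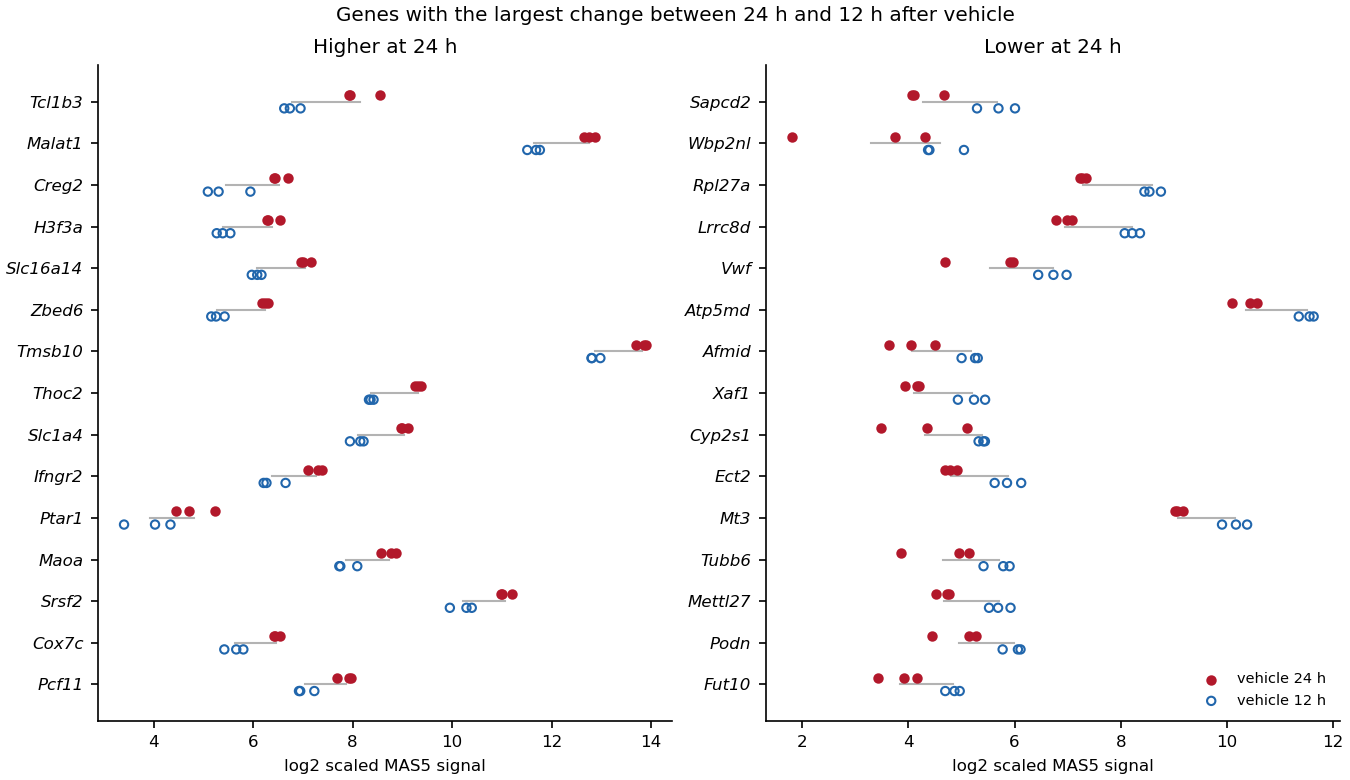
Log2 scaled signal (x axis) of the 15 genes with the largest rise (left) and the 15 with the largest fall (right) between 12 h and 24 h after vehicle, 1 row a gene. Filled points are the 3 arrays at 24 h and open points the 3 at 12 h, joined at their means by a line; no gene's groups overlap, which was a condition of the choice, and among the falling genes only Atp5md, Mt3, Rpl27a and Lrrc8d averaged over 50 at 24 h.

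A few genes of the synaptic vesicle were lower at 24 h. Of 23 synaptic and transmitter genes, 4 were lower and 1 higher, with a median of -0.12, against 6.68% lower, 4.07% higher and a median of -0.08 over all genes. Over all 45 probe sets of these genes, 7 were higher and 5 lower. Syp, synaptophysin of the vesicle membrane, read 1090, 990 and 1120 at 24 h, against 1580, 1630 and 1780 at 12 h, at -0.64 (SE 0.120, limma adjusted p = 0.000530). Sncb, beta-synuclein, read 301, 276 and 304 at 24 h, against 480, 441 and 517 at 12 h, at -0.71 (adjusted p = 0.00123). The groups were clear of each other for both. Vamp2, the SNARE protein of vesicle fusion, was at -0.38, a call lost without 24 h replicate 2 (adjusted p = 0.0573), and Syn1, which tethers vesicles to actin, was at -0.52, lost without 12 h replicate 3 (0.126) or 24 h replicate 1 (0.109) or 2 (0.0694). Its relative Syn2 was the higher one, at 0.37, lost without 12 h replicate 1 (0.144) or 3 (0.155) or 24 h replicate 1 (0.115) or 2 (0.105). Over the 5 times from 1 to 24 h Syp averaged 902, 952, 874, 1660 and 1070, and Sncb 278, 286, 249, 480 and 293, so for both the 12 h arrays stood apart while 24 h lay near 1 to 6 h. From 6 h to 12 h, when 7.01% of all probe sets rose and 2.4% fell (9.41% in all, by the same test), Syp differed by 0.93 (adjusted p = 3.87e-05 from limma) and Sncb by 0.95 (adjusted p = 0.000203), in a contrast that shares the 12 h arrays with the one described here.

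Mt3 had the same course, averaging 520, 479, 507, 1150 and 545 over the 5 times. Of 24 neuropeptide genes 3 were lower and none higher, with a median of -0.27. The shares over all genes were 6.68% lower and 4.07% higher, with a median of -0.08. Oxt, oxytocin, read 181, 206 and 201 at 24 h, against 296, 279 and 256 at 12 h, at -0.50 (adjusted p = 0.0186 from limma), and its means at the 3 earlier times were lower than at 12 h as well (159, 171 and 186, against 277). Sst, somatostatin, was at -0.38 and Vgf, a granin-like precursor, at -0.36. Each of these calls was lost without some array: Oxt without 12 h replicate 1 (adjusted p = 0.0834) or 24 h replicate 1 (0.0888), and Sst and Vgf without any of 5 arrays, leaving between 0 and 2 neuropeptide calls of this list. Pmch, melanin-concentrating hormone of the lateral hypothalamus, was at -0.59 with overlap avoided only narrowly, at 1050, 563 and 813 at 24 h, against 1120, 1310 and 1110 at 12 h (adjusted p = 0.146). Avp, vasopressin, read 1480, 1510 and 1720 at 24 h, against 1520, 1070 and 1310 at 12 h, and did not pass.

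**Figure D3:**
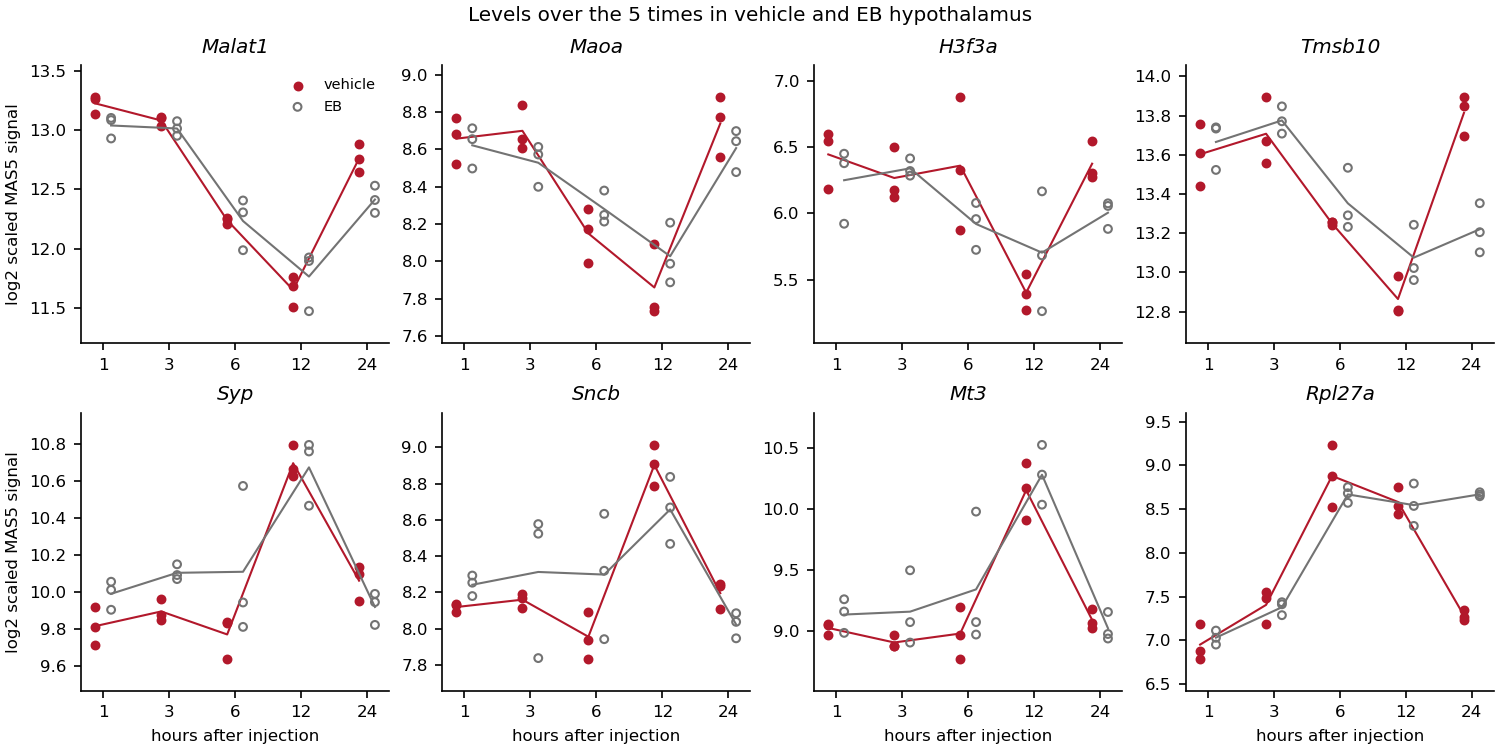
Log2 scaled signal (y axis) of 8 genes at each time from 1 to 24 h (x axis), with filled points and a line through the means for vehicle and open points for EB, 3 arrays a point in time. After vehicle Malat1, Maoa, H3f3a and Tmsb10 have their lowest mean at 12 h and Syp, Sncb and Mt3 their highest; Rpl27a is high at 6 h and 12 h after vehicle and low at 1, 3 and 24 h, while after EB it is still high at 24 h.

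Cell-cycle genes that passed were lower. Of 34 tested, 4 were lower and none higher, with a median of -0.17. Over all genes 6.68% were lower and 4.07% higher, with a median of -0.08. Cdc20, which activates the anaphase-promoting complex, read 98.2, 92.3 and 68.5 at 24 h, against 152, 139 and 147 at 12 h, at -0.77 (SE 0.155, limma adjusted p = 0.00106), and it alone of the 4 kept its call without each array. Ect2, Ccnb2 (cyclin B2, at -0.59) and Mcm5 (a subunit of the replicative helicase, at -0.49) did not, so that between 1 and 4 remained: Ccnb2 was lost without 12 h replicate 3 (adjusted p = 0.0781) or 24 h replicate 1 (0.115) and Mcm5 without any array but 24 h replicate 3. Among 24 progenitor and neuroblast genes, Stmn1 and Stmn2, both tubulin-binding stathmins, were higher at 0.67 and 0.44. With quantile normalization they were at 0.09 and -0.004 and neither passed, while with cyclic loess both did, at 0.48 and 0.28. None of 23 hypothalamic transcription factors passed (2 with an unadjusted p under 0.05, against 24.8% of all genes). Isl1 read 1290, 1240 and 1170 at 24 h, against 1280, 1340 and 1400 at 12 h, and Otp 1020, 1130 and 1140 at 24 h, against 1020, 873 and 1060 at 12 h; these factors of the hypothalamus were thus read in both groups.

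Glial, vascular and matrix genes gave few calls, where 4.07% of all genes were higher and 6.68% lower. Of 23 astrocyte genes Fabp7, a fatty acid-binding protein of radial glia, was higher at 0.35 and Slc1a3, the glutamate transporter GLAST, lower at -0.55 by its brightest probe set. Of 14 microglial genes C1qa, of complement, was lower at -0.49, a call kept only without 12 h replicate 2 (adjusted p from 0.0238 to 0.112 over the 6 arrays). No oligodendrocyte (16), endothelial (18), mural (10), tanycyte (8), telencephalic (8), choroid plexus or ependymal (11) or border macrophage (5) gene passed, and neither did 2 erythroid genes. Vwf and Podn, described above, are genes of endothelium and matrix that these lists do not hold. An unadjusted p under 0.05 was reached by 2 oligodendrocyte, 2 endothelial, 1 choroid plexus or ependymal and 1 border macrophage gene, and by 0 of the other lists, against 24.8% of all genes. None of 9 pituitary markers was bright enough to test. Of 46 matrix genes, Col4a1, a basement membrane collagen, was at -0.64, Mfap2, of microfibrils, at -0.45, and Tnc, tenascin C, at 0.38. Col4a1 was lost without 12 h replicate 1 (adjusted p = 0.0662) or 3 (0.0720) or 24 h replicate 2 (0.0523), Mfap2 without 12 h replicate 1 (0.189) or 3 (0.219) or 24 h replicate 1 (0.351), and Tnc without any array but 12 h replicate 3. Prox1, on the thalamic list, was higher at 0.66, lost without 12 h replicate 3 (0.108) or 24 h replicate 1 (0.0736) or 2 (0.0893). Ifitm3, an interferon-induced membrane protein, was lower at -0.74, lost without 12 h replicate 1 (0.0782) or 3 (0.107).

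Of 14 energy balance receptor and signalling genes, 1 was higher and 1 lower, against 4.07% and 6.68% of all genes. Irs1, the docking protein of the insulin receptor, read 1110, 1070 and 1260 at 24 h, against 881, 836 and 859 at 12 h, at 0.41 (adjusted p = 0.00735 from limma), and Cpt1c, the brain form of carnitine palmitoyltransferase, read 423, 385 and 414 at 24 h, against 548, 544 and 601 at 12 h, at -0.47 (adjusted p = 0.000721). The groups did not overlap for either. Of 20 sterol genes Sc5d (0.56) and Hmgcs1 (0.27), enzymes of cholesterol synthesis, were higher and Srebf2, the factor that switches on the pathway, lower (-0.48). Hmgcs1 was lost without any 1 array (adjusted p from 0.0778 to 0.124), Sc5d without any but 24 h replicate 3, and Srebf2 without 12 h replicate 1 (0.124) or 24 h replicate 2 (0.0739) or 3 (0.0860).

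The genes of the ribosome were mostly higher. Of 41 cytosolic ribosomal protein genes, 24 were higher and 2 lower (4.07% and 6.68% of all genes), with a median of 0.25. Rpl41 read 10600, 9980 and 9270 at 24 h, against 6700, 6240 and 6610 at 12 h, at 0.61 (SE 0.0838, limma adjusted p = 1.51e-05), and Rplp2, Rps29 and Rps24 were at 0.49, 0.48 and 0.47. The exceptions were Rpl27a and Rps6, whose probe sets were far dimmer than that of Rpl41. Rps6 read 169, 180 and 211 at 24 h, against 305, 258 and 282 at 12 h. This result turned on the scaling. With quantile normalization 3 were higher and 8 lower with a median of -0.01, and with cyclic loess 19 were higher and 3 lower with a median of 0.14. Rps29 was lower with quantile normalization, at -0.19 (adjusted p = 0.00149), and Rplp2 and Rps24 came to 0.01 and 0.02, whereas Rpl27a and Rps6 stayed at -1.25 and -0.54.

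The same held for other very bright genes, and brightness itself moved with the change. Of the 271 probe sets in the top 1% of mean signal, 73.4% were higher at 24 h and the median was 0.33, of the 270 in the next 1% 38.1% were higher and the median was 0.17, and below the 95th percentile the medians lay between -0.06 and -0.01. Hspa8, a constitutive chaperone, was at 0.66, Stmn1 at 0.67 and Cox6a1, of cytochrome c oxidase, at 0.68, and with quantile normalization they were at 0.14, 0.09 and 0.27, of which only Cox6a1 passed. Tmsb10 kept 0.34 with quantile normalization and 0.75 with cyclic loess. As deposited, Tmsb10 read 11700, 10200 and 11800 at 24 h, against 12000, 11600 and 11600 at 12 h, near the top of the arrays' range, where the brightest signal was 10172 to 11903 at 24 h and at least 13960 at 12 h. A bright spiked-in control, cre, read 9130 to 11113 at 24 h and 12473 to 12549 at 12 h as deposited, and a dim one, bioB, 231 to 292 at 24 h and 425 to 441 at 12 h. After scaling, bioB was higher at 24 h, at 330 to 340 against 265 to 285 at 12 h. The scaled 3′ control probe set of Actb read 12700, 12200 and 11300 at 24 h, against 8220, 7710 and 7830 at 12 h. That of Gapdh read 5150, 4890 and 4970 at 24 h, against 4200, 3970 and 4100 at 12 h. The part of brightness in these results was not tested. Of 16 heat shock genes 4 were higher, Hspa8, Hsp90aa1 (0.30), Hspd1 (0.27) and Dnaja1 (0.26), against 4.07% of all genes. Only Hspa8 kept its call without each array, Hsp90aa1 and Hspd1 lost it without any of the 6, Dnaja1 without 12 h replicate 2 (adjusted p = 0.0526) or 3 (0.0894) or 24 h replicate 1 (0.0708) or 2 (0.0742), and Hsp90aa1 was at -0.06 with quantile normalization (0.645).

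**Figure D4:**
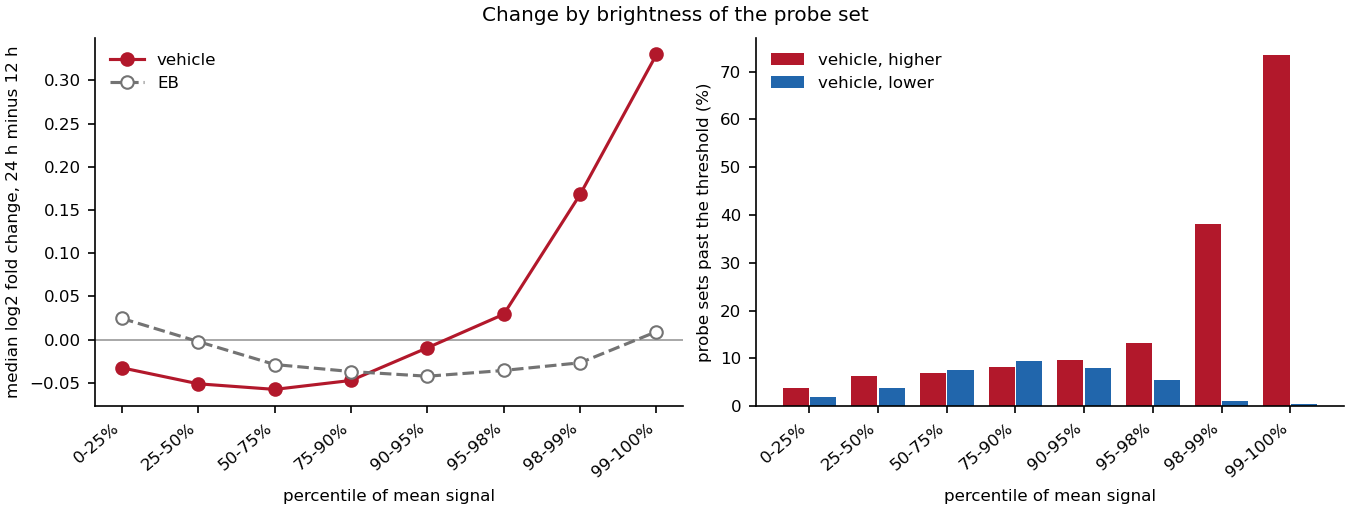
Probe sets in 8 bins of mean log2 signal (x axis, percentile of mean signal): left, the median log2 fold change between 24 h and 12 h (y axis) for vehicle (filled) and EB (open); right, the percent of probe sets that were higher or lower after vehicle (y axis). After vehicle the median rises to 0.33 in the brightest 1%, of which 73.4% were higher, and after EB it lies between -0.04 and 0.02 in every bin.

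Where 4.07% of all genes were higher and 6.68% lower, 8 of 72 oxidative phosphorylation subunits were higher and 5 lower, with a median of 0.01. Those higher included Cox7c, Cox6a1 and Atp5a1, the alpha subunit of ATP synthase (0.41), and those lower Atp5md, Ndufs8 (-0.69) of complex I, and Sdhc (-0.48), which anchors complex II in the membrane. Ndufs8 read 1540, 1170 and 1220 at 24 h, against 1980, 2110 and 2210 at 12 h. With quantile normalization 4 were higher and 14 lower, and with cyclic loess 8 and 17.

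Calls were seldom shared by all probe sets of a gene, and those higher lay more often on a dimmer one. Of the probe sets with a symbol that were higher, 29.8% were their gene's brightest, against 64.8% of those lower and 55.0% of all. Of 1210 genes with several probe sets and at least 1 higher, 43 had every one higher, and of 772 with at least 1 lower, 21 had every one lower. The genes that follow were chosen after their values were seen. The dimmer probe set of Gad2, the enzyme that makes GABA, read 245, 199 and 232 at 24 h, against 80.2, 118 and 71.2 at 12 h, at 1.36, and the brighter one 862, 571 and 799 at 24 h, against 706, 780 and 756 at 12 h, at -0.03. For Slc17a6, the vesicular glutamate transporter VGLUT2, the dimmer was at 1.30 and the brighter at 0.19, and for Atrx, a chromatin remodeller, 3 of 5 were higher, at 1.04, 1.46 and 1.42, while the brightest was at 0.19. A probe set of Dyrk1a, a kinase, was at 1.87 and its brightest at 0.01. Slc1a3 had a probe set at 1.34 and another at -0.78 beside its brightest at -0.55. Of these genes only Slc1a3 had calls in both directions, and for the others the brightest probe set did not pass. Map1b, a microtubule-associated protein of growing axons, was higher by its brightest probe set too, at 0.71. The genes called higher by the brightest probe set had a median genomic span of 30634 bp and those called lower one of 18463 bp, against 24893 bp for all.

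The EB arrays give the same interval in other mice, with a difference in brightness of the same direction (median deposited signals of 35.4 to 41.1 at 24 h and 52.9 to 62.5 at 12 h). Their scaled 18S controls did not overlap, at 1771 to 2186 at 24 h and 618 to 1134 at 12 h, unlike those after vehicle. The part of this in the EB changes, and in their differences from vehicle, was not tested. There 1313 probe sets (4.86%) were higher and 1727 (6.39%) lower at 24 h, 11.3% together. Of those higher after vehicle 723 were also higher after EB, which is 35.9% of the vehicle and 55.1% of the EB list, and 328 were lower in both, 22.8% and 19.0%. Opposite calls were made for 9. The probe sets higher after vehicle had a median of 0.26 after EB, and those lower one of -0.16. Of these, 83.6% and 75.2% changed in the same direction after EB, against 63.3% of all probe sets tested. By brightest probe set, 66 of the 504 higher genes (13.1%) and 215 of the 827 lower ones (26%) also passed after EB. The 504 had a median of 0.07 after EB and the 827 one of -0.19. The same direction was seen for 71% and 81.9% of them, against 63.5% of all genes. Malat1 (0.65 after EB), Thoc2 (0.58), Maoa (0.58), Creg2 (0.84), Slc16a14 (0.82) and Zbed6 (0.71) passed in both, as did Mt3 (-1.26) and Vwf (-0.95). The synaptic genes did too, with Syp at -0.76, Syn1 at -0.75, Sncb at -0.63 and Vamp2 at -0.38 after EB. Of the 20 clock genes 2 were lower after EB (9.22% of all genes by their brightest probe set were lower and 1.27% higher), Hlf at -0.63 (adjusted p = 0.0356 from limma) and Per1 at -0.59 (adjusted p = 0.0173), and for neither did the difference between vehicle and EB pass (adjusted p = 0.118 and 0.151).

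The difference itself passed for 429 probe sets (1.59%), more positive after vehicle for 336 (1.24%) and more negative for 93 (0.344%). Leaving out EB 24 h replicate 1 left 93 and leaving out EB 12 h replicate 2 gave 760. Rpl27a, Lrrc8d and Atp5md fell after vehicle and were at 0.12, 0.11 and 0.03 after EB, with differences of -1.42, -1.37 and -1.18 (adjusted p = 0.000220, 0.000214 and 0.0182 from limma). Rpl27a read 401 to 414 in the 24 h EB arrays, against 317 to 443 in the 12 h EB arrays. None of the ribosomal genes passed after EB, where their median was -0.04, and the difference passed for 13 of 41. Genes of the leptomeninges, the thin membranes that wrap the brain, differed more. None of the 24 fibroblast markers tested passed after vehicle (median -0.19, 0 with an unadjusted p under 0.05), while all 24 were lower at 24 h after EB (median -3.36) and the difference passed for all 24. Ptgds, the brain prostaglandin D synthase, read 7050, 6300 and 5980 at 24 h after vehicle, against 6000, 5440 and 4710 at 12 h.

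**Figure D5:**
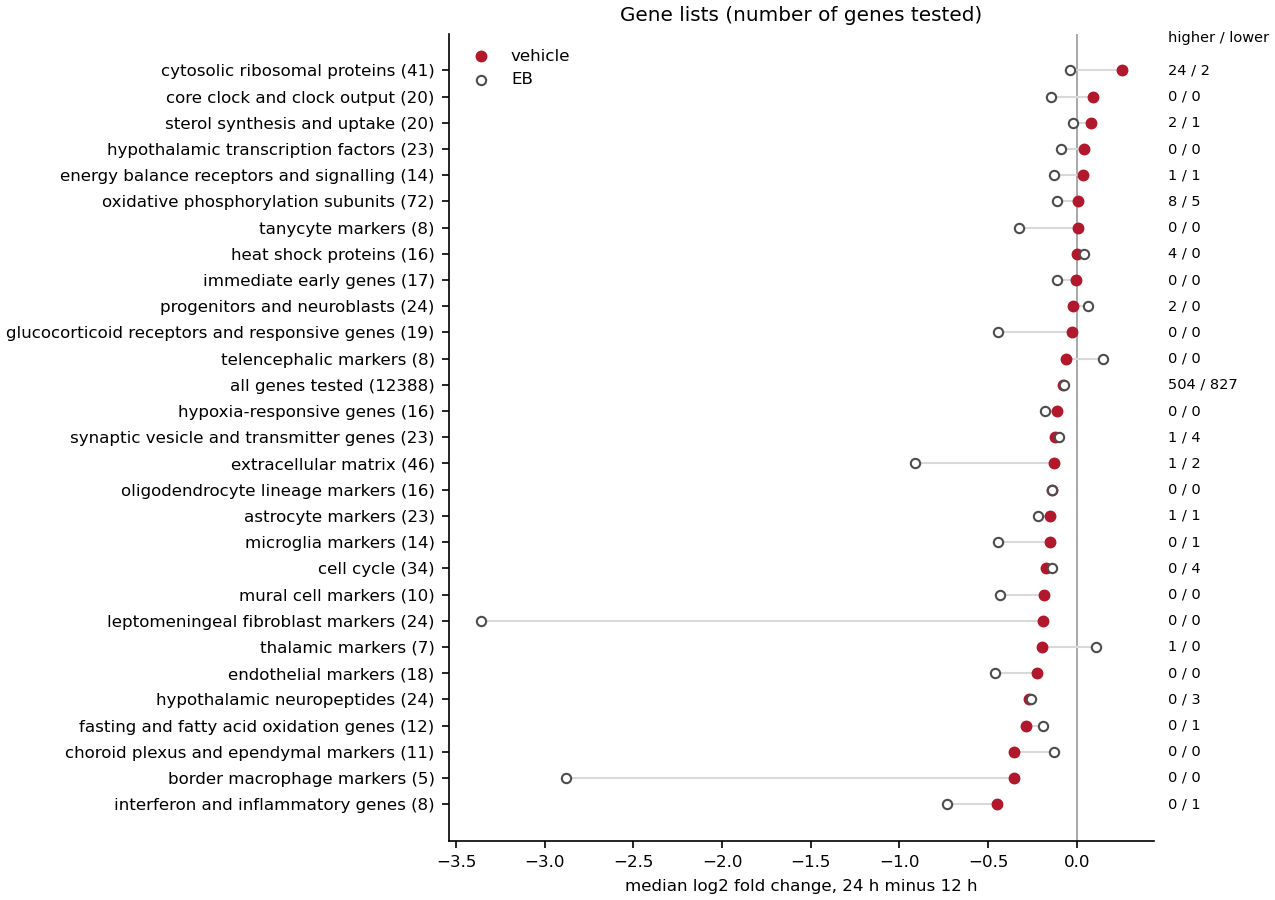
Median log2 fold change between 24 h and 12 h (x axis) of each gene list with 4 or more genes tested (y axis, number tested in brackets), filled for vehicle and open for EB, with the number of genes higher / lower after vehicle at the right. After vehicle the medians lie between -0.45 (interferon and inflammatory genes) and 0.25 (ribosomal proteins); after EB leptomeningeal markers lie at -3.36 and border macrophage markers at -2.88.

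The earlier vehicle arrays show where the 24 h and 12 h levels stood in the course. Over the 2015 probe sets higher at 24 h than at 12 h, the median level relative to 12 h was 0.55, 0.52 and 0.24 at the 3 earlier times and 0.52 at 24 h. Over the 1436 lower it was -0.46, -0.48 and -0.30 at the earlier times and -0.46 at 24 h. The 12 h arrays, which took part in choosing these probe sets, stood apart from both the earlier times and 24 h. In the EB arrays, which did not choose these probe sets, the corresponding medians against EB 12 h were 0.36, 0.29, 0.13 and, at 24 h, 0.26 for the higher group, and -0.27, -0.24, -0.17 and, at 24 h, -0.16 for the lower one. Between 24 h and 1 h after vehicle 1819 probe sets passed (6.73%), 1332 higher (4.93%) and 487 lower (1.8%), and between 24 h and 6 h 1571 (5.81%), 1289 higher (4.77%) and 282 lower (1.04%). The 12 h arrays were also the brightest in both arms, with mean deposited medians of 39.6, 36.6, 36.7, 64.9 and 32.3 over the 5 times after vehicle, and the part of brightness in these courses was not tested.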

How the data were processed

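Hypothalamic RNA of 30 newborn mice, 3 in each of 10 groups, was hybridised to GeneChip Mouse Genome 430 2.0 arrays. The deposited values are linear intensity signals (MAS5, by the submitters' processing notes); no source used here gives the software version or a target scaling. No column lacked a sample (0 columns). Arrays were brought to a common median (the mean of their medians), signals under 1 were set to 1 and log2 was taken. Leaving out 64 control probe sets and the lowest 40% by mean log2 signal kept 27022 probe sets with a mean signal of at least 21.9. A linear model with 1 mean for each of the 10 groups was fitted to all 30 arrays with limma 3.58.1 (eBayes with a trend; R 4.3.3), with Benjamini-Hochberg adjustment over all probe sets. Precision is limited by 3 arrays in each group.

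Of 45037 probe sets 34945 carried 1 symbol in the platform annotation, 932 several and 9160 none, and updating by gene identifier changed 0. Genes named are up to 15 in each direction with the largest change among those past the threshold whose groups do not overlap (clone and predicted models left out), every tested clock gene, and from 31 lists up to 6 members past the threshold, or some of the brightest where none passed. The members and lists were chosen with earlier results of these data known. Tested on simulated data for vehicle at 24 h against 12 h (27022 probe sets, 200 of them changed), the fit recovered 46% of changes of 1.5-fold and 88% of those of 2-fold. The simulation gave 173 calls, against 3451 in the data. Its adjusted threshold was therefore stricter, and these shares do not carry over to the data. Alternatives covered scaling, low signals, filters, the arrays fitted, array weights, the replicate number, a test adapted from the methods and the omission of single arrays. That test, called the methods' test here, compared group means by a pooled, unmoderated spread. It used Benjamini-Hochberg adjustment, where the methods followed an analysis of variance with the Bonferroni test. Cyclic loess, the methods' test on scaled signals and leaving out arrays for the lists were added after seeing the data.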

Additional observations from a re-analysis of the deposited data

Results flagged for a closer look

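The change between 24 h and 12 h differed between vehicle and EB, by a test of the difference itself, for 429 probe sets and for 14 of the named genes. Among those more positive after vehicle (vehicle minus EB, log2), Tmsb10 differed by 0.80, Slc1a4 by 0.77, Srsf2 by 0.76, Rpl41 by 0.66, Hspa8 by 0.62, Stmn1 by 0.59, Cox6a1 by 0.57, Rplp2 by 0.54, Rps24 by 0.49, Atp5a1 by 0.40 and Rps29 by 0.39 (adjusted p from 0.00545 to 0.0426 by limma). Those more negative after vehicle were Atp5md at -1.18, Lrrc8d at -1.37 and Rpl27a at -1.42. None of these 14 had a change after EB that passed the test (adjusted p from 0.393 to 0.958). Of the 11 more positive after vehicle, Tmsb10, Rpl41, Hspa8, Stmn1, Cox6a1, Rplp2, Rps24 and Rps29 averaged from 8410 to 14400 at 24 h and from 5570 to 9150 at 12 h after vehicle, and Slc1a4, Srsf2 and Atp5a1 averaged 521, 2150 and 2990 at 24 h and 277, 1200 and 2250 at 12 h.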

How the results depend on the processing

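Without scaling, 17 probe sets were higher and 25501 lower after vehicle, 44 and 20933 after EB, and 220 differed between the arms. The methods' test, adapted as described above, gave 9 and 25580, 29 and 22204, and 1464 on the deposited signals. On scaled signals it gave 1839 higher and 1583 lower after vehicle. With array weights 3408 were higher and 3480 lower after vehicle and 1306 differed. Without a filter 158 differed. Fitted to only the arrays compared, EB gave 661 higher and 1147 lower. With the replicate block in that fit 2571 were higher and 2730 lower after vehicle, against 2142 and 1919 without it. After EB 655 were higher and 1066 lower with the block. In all 30 arrays the replicate block gave 2031 higher and 1451 lower. The deviations of same-numbered arrays had correlations of -0.003, 0.081 and 0.110, and those of differently numbered arrays from -0.121 to 0.046. With 3 arrays a group these values cannot settle whether the numbers pair the mice. Leaving out 1 array gave 1262 to 1883 higher and 461 to 1471 lower after vehicle, 657 to 1512 higher and 874 to 1753 lower after EB, and 93 to 760 that differed. On the deposited signals with the shift of all probe sets taken off, 804 were higher and 111 lower after vehicle. The other counts stayed within 1.5 times.

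Of 70 named genes past the threshold, 4 changed sign with quantile normalization: Stmn2 at -0.0042, Fabp7 at -0.17 and Hsp90aa1 at -0.062 lost the call (adjusted p = 0.973, 0.0657 and 0.645 from limma), and Rps29 at -0.19 passed as lower (0.00149). Under the other settings between 36 and 70 kept their call, with the fewest on the deposited signals relative to their shift. The clock list had 0 calls except 1 higher in the fit of only the 6 arrays, 1 higher and 1 lower there with the replicate block, 2 higher and 1 lower with array weights, and 1 lower without 12 h replicate 2. The methods' test on deposited signals was not run for single genes, since all carry the brightness shift. The cause of these differences was not tested. The precision of small changes is limited by 3 arrays a group. The probe sets called higher after vehicle had a median of 0.52 on the log2 scale and those called lower one of -0.46.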
